A study of Mus musculus with 54 samples.

Results

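The TNF receptor superfamily holds transmembrane receptors that are engaged by trimeric ligands of the TNF family on neighbouring cells. After the TCR and CD28 have started a T cell response, members without a death domain bind TRAF adaptors, switch on canonical and non-canonical NF-kappaB, and prolong division and survival, which is why they are called costimulators. In this group are OX40 (Tnfrsf4), CD137 (Tnfrsf9), GITR (Tnfrsf18), TNFR2 (Tnfrsf1b), CD30 (Tnfrsf8), and CD27 (Cd27), whereas TNFR1 (Tnfrsf1a), Fas (Fas), and DR3 (Tnfrsf25) carry a death domain and can signal for death or for survival. Tnfrsf26 belongs to a mouse cluster of receptors related to decoy receptors for the death ligand TRAIL, and its role in T cells is not well defined. These 10 genes, out of 55385 in each of 2 count tables, were chosen by name, with earlier results of these data known. All 10 were among the genes tested (32290 in the CD5/CD6 experiment and 27780 in the LAT experiment).

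RNA sequencing was carried out on naive CD4+ T cells of C57BL/6 mice, either directly after purification (0 h) or after 4 h or 20 h of culture with plate-bound anti-CD3 at 3 µg/ml and soluble anti-CD28 at 1 µg/ml. The study asked what CD5 and CD6, surface receptors that dock signalling proteins near the TCR, and LAT, the adaptor that relays most TCR signals, each contribute to the transcriptional response. One experiment (CD5/CD6, 36 samples) used cells of WT mice and of mice that lacked CD5, CD6, or both (Cd5-/-, Cd6-/-, and Cd5-/-Cd6-/-), enriched magnetically from lymph nodes and spleens that had been pooled, and its WT cells are called enriched WT cells. The other (LAT, 18 samples) used WT and Lat-/- cells from the same organs, sorted by flow cytometry, and its WT cells are called sorted WT cells, with 3 samples in each of the 18 groups of both experiments. Both LAT groups came from Lat fl-dtr maT-Cre mice, in which Cre acts in maturing T cells and deletes a floxed Lat allele linked to human DTR (the diphtheria toxin receptor). WT are the human DTR+ cells of these mice and Lat-/- the human DTR- cells, so that each LAT group consisted of cells gated within the same kind of mouse and not of a mouse line of its own.

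The libraries held 20554354 to 45222554 counts in the CD5/CD6 experiment and 17784644 to 28501095 in the LAT experiment, and 3 counts, taken as the floor of detection, correspond to 0.0663 to 0.146 CPM and 0.105 to 0.169 CPM, limits that cover counting error only. Levels are given as RPKM, which are reads scaled to exon length in kilobases and to library size after TMM normalization, so that levels of different genes can be set side by side. At 0 h, 2 libraries go against their labels. Library 2 labelled Cd5-/- had Cd5 at 146 RPKM and Cd6 at 41.2 RPKM, and library 2 labelled Cd6-/- had Cd5 at 35.0 RPKM and Cd6 at 151 RPKM, whereas WT cells at 0 h had 124, 122, and 133 RPKM of Cd5 and 83.0, 80.4, and 75.3 RPKM of Cd6. Both were kept under their labels, so that the 0 h groups labelled Cd5-/- and Cd6-/- may each hold a library of the other genotype. Values of Cd5-/- and Cd6-/- cells at 0 h, and changes over 0 h, include these 2 libraries unless stated otherwise. In the LAT experiment, Lat stood at 106, 77.2, and 86.9 RPKM in the WT libraries and at 5.49, 4.18, and 6.89 RPKM in the Lat-/- libraries at 0 h. Some Lat RNA was thus left in Lat-/- cells, called cells without LAT below, and its part in the members' changes was not tested. Library 3 of Lat-/- cells at 20 h stood apart from the other 2 in several members, and its effect is given where it matters. The 6 markers of naive CD4+ T cells that were measured summed to 5245.6 to 6576 CPM in enriched WT cells and to 6146 to 7020.1 CPM in sorted WT cells at 0 h. Because these are bulk libraries, fewer cells of a type and less RNA per cell cannot be told apart. No group was cultured without the antibodies, so that effects of culture and of stimulation on changes over 0 h cannot be told apart. The p-values rest on the spread between these samples, which the labels do not tie to separate mice. In the LAT experiment the main test (edgeR) used a spread shared by all genes. Its p-values and the errors of its log2 changes there do not reflect how far the libraries of a single gene lie apart.

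Of the 10 genes, 6 lie on chromosome 4, and 2 pairs of them are close neighbours. In GRCm38, Tnfrsf1b (chr4:145213463-145246870, minus strand) and Tnfrsf8 (chr4:145267137-145315164, minus strand) are 20.3 kb apart, and Tnfrsf4 (chr4:156013843-156016612, plus strand) and Tnfrsf18 (chr4:156026164-156028895, plus strand) are 9.55 kb apart. Tnfrsf9 (chr4:150914562-150946102, plus strand) and Tnfrsf25 (chr4:152115934-152120119, plus strand) lie between these pairs. Cd27 (chr6:125232622-125237010, minus strand) and Tnfrsf1a (chr6:125349362-125362484, plus strand) are 112 kb apart. Tnfrsf26 is at chr7:143607659-143628722 on the minus strand. Fas is at chr19:34290666-34327772 on the plus strand, on the chromosome of the targeted Cd5 and Cd6 genes and 23.5 Mb from Cd6. Annotated genes on the opposite strand overlap Tnfrsf9 (Camta1), Tnfrsf18 (Gm16008), Tnfrsf26 (E230032D23Rik), and Cd27 (Vamp1), and the use of strand in counting is not given in the sources used here, so that reads in these overlaps could have been assigned either way.

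The windows just upstream of the start sites are shown for the 5 members that rose at 4 h in WT cells of both experiments, since TCR and CD28 signals reach such genes through AP-1, NFAT, and NF-kappaB. RefSeq start sites gave 11 windows of 250 bases (GRCm38.p6) for 9 of the 10 members (all but Tnfrsf26), with 2 windows each for Tnfrsf9 and Tnfrsf25. The letters TGANTCA (AP-1), GGAAA (the NFAT core), and the 10-base NF-kappaB consensus were searched on both strands. AP-1 letters were present in 3 of the 11 windows (6.75% of all 32851 windows of that length), NFAT core letters in 8 (55.6% of all), and the NF-kappaB consensus in 2 (3.9% of all). Matches are in capitals. Bases that lie in an annotated UTR were left out, which removed 81 bases of the second Tnfrsf9 window and 166 bases of the Tnfrsf4 window (a UTR of Sdf4), and the matches within the former are shown as short sites. The removed part of the Tnfrsf4 window holds NFAT core letters at bases 220 to 216 before the start, which are not shown.
Tnfrsf9, upstream start, chr4:150919905-150920154, plus strand: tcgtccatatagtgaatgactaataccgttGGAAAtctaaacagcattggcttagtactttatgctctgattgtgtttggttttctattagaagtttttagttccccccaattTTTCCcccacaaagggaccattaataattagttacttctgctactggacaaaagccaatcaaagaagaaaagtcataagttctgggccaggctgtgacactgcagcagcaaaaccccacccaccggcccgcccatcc
Tnfrsf9, downstream start, chr4:150927749-150927917, plus strand: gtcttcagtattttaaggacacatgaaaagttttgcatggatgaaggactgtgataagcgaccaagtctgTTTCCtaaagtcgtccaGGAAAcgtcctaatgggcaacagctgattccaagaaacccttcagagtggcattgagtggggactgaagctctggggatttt
Tnfrsf9, NF-kappaB and NFAT letters before the downstream start, chr4:150927951-150927971, plus strand: cagctGGGGATTTCCCaggag
Tnfrsf9, AP-1 letters before the downstream start, chr4:150927979-150927995, plus strand: tcagtTGAGTCAcaggt
Tnfrsf4, chr4:156013611-156013694, plus strand: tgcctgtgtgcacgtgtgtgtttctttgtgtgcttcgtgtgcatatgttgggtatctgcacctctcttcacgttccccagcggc
Tnfrsf1b, chr4:145246871-145247120, minus strand: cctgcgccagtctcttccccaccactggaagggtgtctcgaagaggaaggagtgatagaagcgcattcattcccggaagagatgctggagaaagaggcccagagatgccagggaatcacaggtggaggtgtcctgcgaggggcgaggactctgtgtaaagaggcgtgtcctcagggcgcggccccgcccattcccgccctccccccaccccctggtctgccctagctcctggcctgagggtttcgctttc
Cd27, chr6:125237028-125237277, minus strand: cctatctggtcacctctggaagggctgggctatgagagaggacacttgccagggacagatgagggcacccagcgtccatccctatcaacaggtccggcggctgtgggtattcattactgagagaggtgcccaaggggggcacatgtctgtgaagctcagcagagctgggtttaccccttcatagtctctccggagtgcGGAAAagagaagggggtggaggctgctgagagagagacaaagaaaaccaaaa
Tnfrsf8, chr4:145315165-145315414, minus strand: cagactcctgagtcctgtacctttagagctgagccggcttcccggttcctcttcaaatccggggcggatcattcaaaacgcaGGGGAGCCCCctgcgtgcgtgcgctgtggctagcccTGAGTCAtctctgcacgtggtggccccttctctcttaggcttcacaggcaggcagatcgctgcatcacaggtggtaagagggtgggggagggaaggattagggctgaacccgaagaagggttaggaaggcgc
The second Tnfrsf9 window holds AP-1 letters at bases 15 to 9 before its start and overlapping NF-kappaB matches at bases 43 to 34 and 42 to 33, which also overlap NFAT core letters at bases 38 to 34. The Tnfrsf8 window holds AP-1 letters at bases 132 to 126 and an NF-kappaB match at bases 168 to 159. The remaining window with AP-1 letters is that of Fas (bases 211 to 205), a gene not called in WT cells at 4 h or 20 h. None of the 3 motifs was found in the windows of Tnfrsf1b and Tnfrsf1a, and the Cd27 window has only NFAT core letters, at bases 52 to 48. These matches describe letters and are not evidence of binding.

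In resting WT cells the members with the highest levels were Cd27, the receptor for CD70, and Tnfrsf18. Cd27 had 104 ± 14.5 RPKM (SD, n = 3) in the CD5/CD6 experiment and 129 ± 11.1 RPKM in the LAT experiment, above all other members without overlap of the libraries. Tnfrsf18 followed at 37.8 ± 5.10 and 53.2 ± 6.18 RPKM. In the LAT experiment, Tnfrsf1a (33.8 ± 3.56 RPKM), Tnfrsf25 (32.6 ± 3.72), Tnfrsf1b (25.7 ± 3.39), Tnfrsf26 (24.5 ± 2.01), Tnfrsf4 (22.2 ± 4.51), and Fas (21.0 ± 5.20) came next, and each overlapped its neighbour in this order. Tnfrsf9, at 6.93 ± 0.659 and 9.89 ± 0.604 RPKM, was below all members but Tnfrsf8, which was near the floor with 5, 3, and 14 counts in the WT libraries of the CD5/CD6 experiment and 6, 6, and 1 counts in those of the LAT experiment.

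The order of the members changed after stimulation. In sorted WT cells at 4 h, Tnfrsf9 had 618 ± 101 RPKM and stood above Cd27 (328 ± 35.9), Tnfrsf1b (254 ± 68.4), and Tnfrsf4 (162 ± 26.6), of which neighbours overlapped. At 20 h Tnfrsf4 led with 385 ± 22.6 RPKM, followed without overlap by Tnfrsf18 (146 ± 10.4) and Tnfrsf9 (126 ± 7.90). The mean RPKM of the 10 genes summed to 352 in WT cells at 0 h, 1525.1 at 4 h, and 816 at 20 h, and to 313, 467, and 363 in Lat-/- cells. Tnfrsf9 made up 40.5% of this sum in WT cells at 4 h and 11.7% in Lat-/- cells, and Tnfrsf4 made up 47.2% in WT cells at 20 h and 6.99% in Lat-/- cells.

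**Figure D1:**
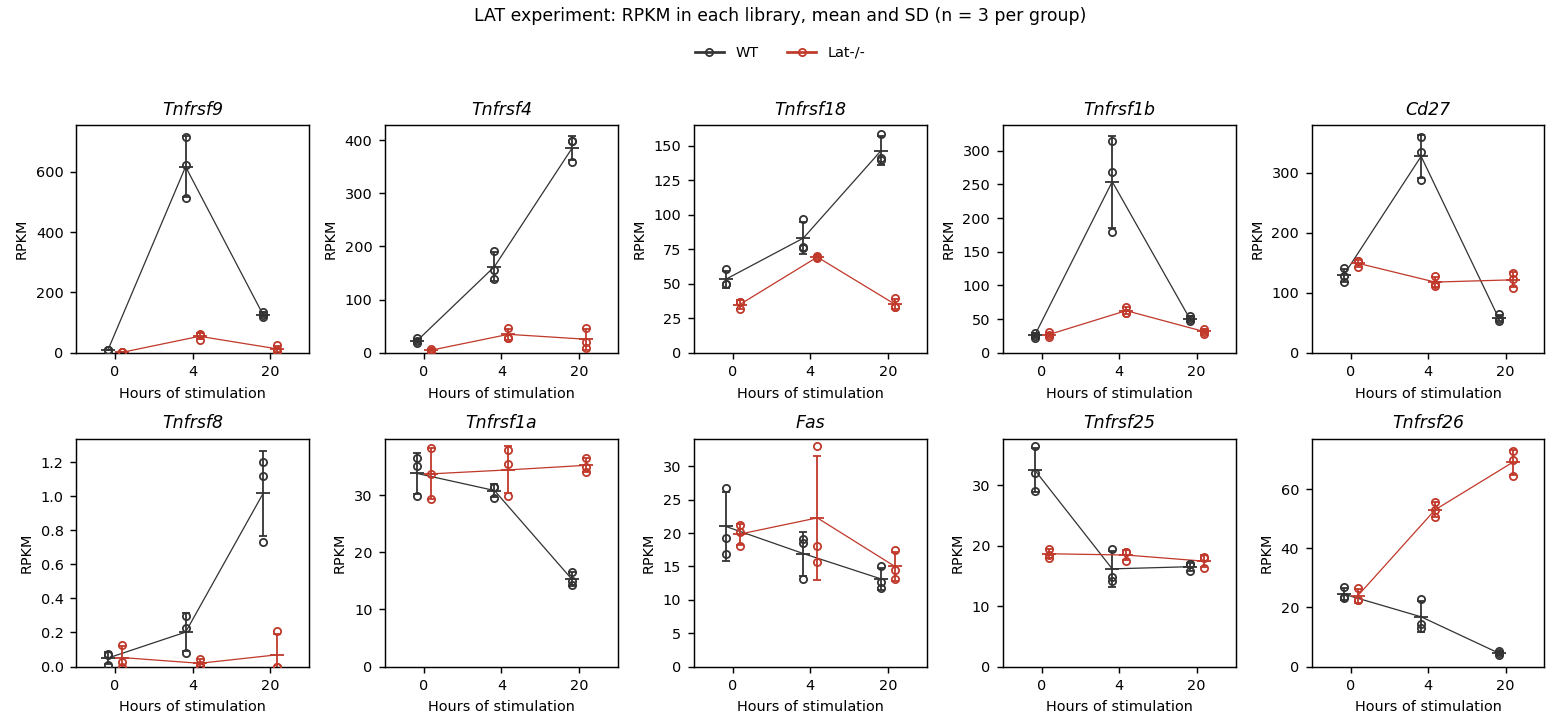
RPKM of the 10 receptor genes in each library of the LAT experiment against hours of stimulation (0, 4, and 20 h drawn at equal spacing), with open circles for libraries, bars for the mean and SD of 3 libraries, and lines joining the means. Tnfrsf9 and Tnfrsf1b peak at 4 h in WT cells, Tnfrsf4 and Tnfrsf18 are highest at 20 h in WT cells, and Tnfrsf26 falls in WT cells and rises in Lat-/- cells.

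A member was called where its fold change was above 2 and its Benjamini-Hochberg adjusted p from edgeR's quasi-likelihood test, named edgeR adjusted p from here on, was under 0.05. At 4 h in enriched WT cells, 5 members rose (8.24% of all genes tested rose) and 0 fell (11.1% of all fell), while 8 of the 10 had an unadjusted p under 0.05 in either direction (34.3% of all genes). The same 5 genes, Tnfrsf9, Tnfrsf4, Tnfrsf1b, Cd27, and Tnfrsf8, rose in sorted WT cells (8.05% of all rose), and there Tnfrsf25 fell (9.29% of all fell). At 20 h, Tnfrsf4, Tnfrsf9, Tnfrsf8, and Tnfrsf18 rose in both experiments (12.3% of all genes rose in the CD5/CD6 experiment and 10.8% in the LAT experiment). Cd27, Tnfrsf1a, and Tnfrsf26 fell in both, and Tnfrsf25 fell in the CD5/CD6 experiment (17.3% of all fell there and 12.7% in the LAT experiment). Between 4 h and 20 h, 6 members changed in the CD5/CD6 experiment (21.0% of all) and 7 in the LAT experiment (17.2% of all). All 5 genes that rose at 4 h belong to the 6 TRAF-binding receptors among the 10, and none of the 3 death domain receptors among the 10 rose at either time. This split describes the chosen genes only: outside them, the death domain receptor Tnfrsf21 rose at 4 h in sorted WT cells, as told below.

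Tnfrsf9, whose product CD137 supports survival of activated T cells, had the highest rise at 4 h. In enriched WT cells it had 6.69, 6.43, and 7.68 RPKM at 0 h, 685, 501, and 576 RPKM at 4 h, and 83.5, 110.0, and 124 RPKM at 20 h. In sorted WT cells it had 9.19, 10.2, and 10.2 RPKM at 0 h, 716, 623, and 514 RPKM at 4 h, and 118, 126, and 134 RPKM at 20 h. The 3 times did not overlap in either experiment, with the 4 h libraries highest and the 0 h libraries lowest. The log2 fold change at 4 h was 6.40 ± 0.19 (84.7-fold) in the CD5/CD6 experiment and 5.96 ± 0.15 (62.4-fold, edgeR adjusted p = 1.29e-229) in the LAT experiment. At 20 h it was still 15.2-fold and 12.7-fold above 0 h, after a fall from 4 h of 2.47 and 2.29 on the log2 scale.

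Tnfrsf4 rose later. This gene of OX40, which is bound by the OX40 ligand Tnfsf4, had 10.3, 11.1, and 12.9 RPKM at 0 h, 123, 116, and 106 RPKM at 4 h, and 365, 401, and 473 RPKM at 20 h in enriched WT cells. In sorted WT cells it had 18.3, 27.2, and 21.3, then 156, 139, and 191, then 359, 398, and 398 RPKM at these times. Every 20 h library was above every 4 h library, and every 4 h library above every 0 h library. The rise was 10.1-fold at 4 h and 36.1-fold at 20 h in the CD5/CD6 experiment, and 7.29-fold and 17.3-fold (log2 4.11 ± 0.15, edgeR adjusted p = 2.14e-127) in the LAT experiment. Its neighbour Tnfrsf18 followed the same order of times at a smaller fold. In sorted WT cells Tnfrsf18 went from 49.6, 60.4, and 49.8 RPKM at 0 h to 75.8, 76.7, and 96.6 at 4 h and 141, 158, and 139.7 at 20 h, without overlap between the times. Only its change at 20 h exceeded 2-fold, at 2.75-fold in the LAT experiment (edgeR adjusted p = 2.4e-20) and 3.09-fold in the CD5/CD6 experiment.

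Tnfrsf1b and Cd27 rose at 4 h and came down by 20 h. Tnfrsf1b, which encodes TNFR2, the TNF receptor without a death domain, had 25.3, 22.5, and 29.2 RPKM at 0 h, 269, 314, and 179 RPKM at 4 h, and 49.7, 47.2, and 54.7 RPKM at 20 h in sorted WT cells. Its 4 h libraries were above all others, with a rise of 9.90-fold (log2 3.31 ± 0.15) there and 8.85-fold in the CD5/CD6 experiment. At 20 h it differed from 0 h by a log2 of 0.98 ± 0.15 in the LAT experiment and 0.49 ± 0.16 in the CD5/CD6 experiment, under the 2-fold threshold in each. The change in the LAT experiment was called with DESeq2 (1.03, adjusted p = 4.14e-08), with RLE factors (1.03), and without replicate 1 or 3. Cd27 had 128, 141, and 119 RPKM at 0 h, 335, 359, and 289 RPKM at 4 h, and 53.7, 55.7, and 64.1 RPKM at 20 h in the same WT cells, so that the order of the times was 4 h, 0 h, 20 h with no overlap. It rose 2.54-fold at 4 h and was 2.23-fold lower than at 0 h by 20 h (edgeR adjusted p = 9.03e-14). In the CD5/CD6 experiment the fall at 20 h was close to the threshold, with a log2 fold change of -1.02 ± 0.15.

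Tnfrsf8, the gene of CD30, was rare throughout. Its counts in sorted WT cells were 6, 6, and 1 at 0 h, 22, 6, and 21 at 4 h, and 59, 105, and 94 at 20 h. In enriched WT cells they were 5, 3, and 14, then 26, 27, and 19, then 153, 115, and 98. The 20 h libraries were above all others in both experiments, with log2 fold changes over 0 h of 4.34 ± 0.62 (edgeR adjusted p = 5.53e-12) and 4.29 ± 0.53. At 4 h a library with 6 reads overlapped the resting libraries of the LAT experiment, and this rise (log2 2.02 ± 0.65) was not called with DESeq2 (adjusted p = 0.264).

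Tnfrsf1a and Tnfrsf25, which carry a death domain, fell in WT cells. Tnfrsf1a had 29.8, 36.6, and 35.1 RPKM at 0 h, 31.5, 29.6, and 31.5 RPKM at 4 h, and 15.0, 16.6, and 14.2 RPKM at 20 h in sorted WT cells, so that the 20 h libraries were below the rest while 0 h and 4 h overlapped. The fall at 20 h was 2.22-fold (log2 -1.15 ± 0.15, edgeR adjusted p = 1.27e-12), and the log2 fold change in the CD5/CD6 experiment was -1.21 ± 0.15. Tnfrsf25 had 32.1, 36.5, and 29.1 RPKM at 0 h and stood at 14.2, 14.8, and 19.5 RPKM at 4 h and 15.7, 16.9, and 16.9 RPKM at 20 h, with 0 h above both later times. Its log2 fold changes were -1.01 ± 0.16 and -0.98 ± 0.16 at 4 h and 20 h in the LAT experiment and -0.98 ± 0.17 and -1.29 ± 0.17 in the CD5/CD6 experiment, so that 3 of the 4 lay close to the 2-fold threshold. Fas had 16.9, 26.8, and 19.3 RPKM at 0 h, 19.2, 13.2, and 18.5 RPKM at 4 h, and 11.8, 12.6, and 15.0 RPKM at 20 h. It was not called in WT cells of either experiment at 4 h or 20 h, and its log2 fold change at 20 h was -0.68 ± 0.17 in the LAT experiment.

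Tnfrsf26 fell by 20 h in WT cells of both experiments. In sorted WT cells it had 23.2, 23.5, and 26.8 RPKM at 0 h, 13.2, 14.4, and 22.8 RPKM at 4 h, and 5.09, 4.01, and 4.56 RPKM at 20 h. In enriched WT cells it had 25.0, 19.9, and 21.2, then 9.20, 11.6, and 15.5, then 3.40, 3.16, and 3.83 RPKM. The 3 times did not overlap in either experiment. The fall at 20 h was 5.38-fold (log2 -2.43 ± 0.15, edgeR adjusted p = 3.07e-49) in the LAT experiment and 6.36-fold in the CD5/CD6 experiment.

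Resting Lat-/- cells already had less RNA of 2 of the costimulators. Tnfrsf9 was 8.36-fold lower than in WT cells (log2 -3.06 ± 0.17, edgeR adjusted p = 5.18e-65), with 1.05, 0.976, and 1.49 RPKM in the Lat-/- libraries, all below the 3 WT libraries listed above. Tnfrsf4 was 4.76-fold lower (log2 -2.25 ± 0.16, edgeR adjusted p = 2.07e-38), with 4.12, 3.41, and 6.41 RPKM, also below every WT library. These 2 were the only members called at 0 h, where 0.961% of all genes were called. Tnfrsf25 (18.5, 18.0, and 19.5 RPKM, log2 -0.80 ± 0.16) and Tnfrsf18 (36.8, 31.5, and 36.5 RPKM, log2 -0.61 ± 0.15) passed the adjusted p alone, and their libraries did not overlap those of WT cells either. Cd27, Tnfrsf1a, Tnfrsf1b, Tnfrsf26, and Fas had log2 differences from -0.08 to 0.21, none of which was called, and Tnfrsf8 had 2, 0, and 11 counts.

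Markers of regulatory T cells moved with these differences. Tnfrsf4, Tnfrsf9, and Tnfrsf18 are known to be expressed at rest by regulatory T cells, and Foxp3, their defining transcription factor, had 11.9, 11.0, and 13.6 RPKM in WT cells and 5.35, 3.56, and 5.06 RPKM in Lat-/- cells at 0 h. Of 6 markers of regulatory T cells, 4 were lower in Lat-/- cells at 0 h, Foxp3 among them (-1.39 on the log2 scale), and the summed level of the 6 ran from 119 to 165 CPM in WT cells and from 38.0 to 63.0 CPM in Lat-/- cells. The same sums were 161 to 194 and 31.6 to 90.2 CPM at 4 h, and 148 to 192 and 14.4 to 33.0 CPM at 20 h, with 4 of 6 markers lower at each time. Foxp3 was above 3 counts in all groups, and the part of regulatory T cells in the differences between Lat-/- and WT cells was not tested. Other marker sums moved with the genotype as well. Of 5 markers of gamma delta T cells, 3 were lower in Lat-/- cells at 0 h and at 4 h and 1 at 20 h, and they summed to 31.7 to 45.2 CPM in WT and 14.5 to 16.5 CPM in Lat-/- cells at 0 h, 16.1 to 22.6 and 6.83 to 10.5 CPM at 4 h, and 6.42 to 7.48 and 8.34 to 10.8 CPM at 20 h. Of 6 markers of CD8 T and NK cells, 3 were lower at 0 h, 1 was lower and 1 higher at 4 h, and 2 were lower and 1 higher at 20 h, with sums in WT and Lat-/- cells of 54.3 to 71.0 and 56.7 to 70.4 CPM, 28.0 to 32.5 and 45.4 to 54.7 CPM, and 27.2 to 30.1 and 73.8 to 92.7 CPM at these times. Of the 6 naive cell markers, 0 differed at 0 h and 3 were higher in Lat-/- cells at 4 h and at 20 h, with sums at 20 h of 3242 to 3339 CPM in WT and 7344 to 8141 CPM in Lat-/- cells. The B cell marker Pax5 had 3 counts or fewer in every library of this experiment. The part of these cells in the members' differences was not tested either.

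Without LAT, some of the members still rose after stimulation. At 4 h, 4 members rose in Lat-/- cells (3.08% of all genes rose) and 0 fell (3.62% of all fell). At 20 h, 3 members were above 0 h (2.14% of all) and 0 were below (2.07% of all), and an unadjusted p under 0.05 in either direction was found for 6 and 5 members at these times (23.3% and 18.7% of all genes). Between 4 h and 20 h, Tnfrsf9 alone was called, as lower (4.1% of all were called). In the difference of responses, which tests whether the change over time in Lat-/- cells departs from that in WT cells, 4 members were called at 4 h (8.71% of all) and 5 at 20 h (19.5% of all).

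**Figure D2:**
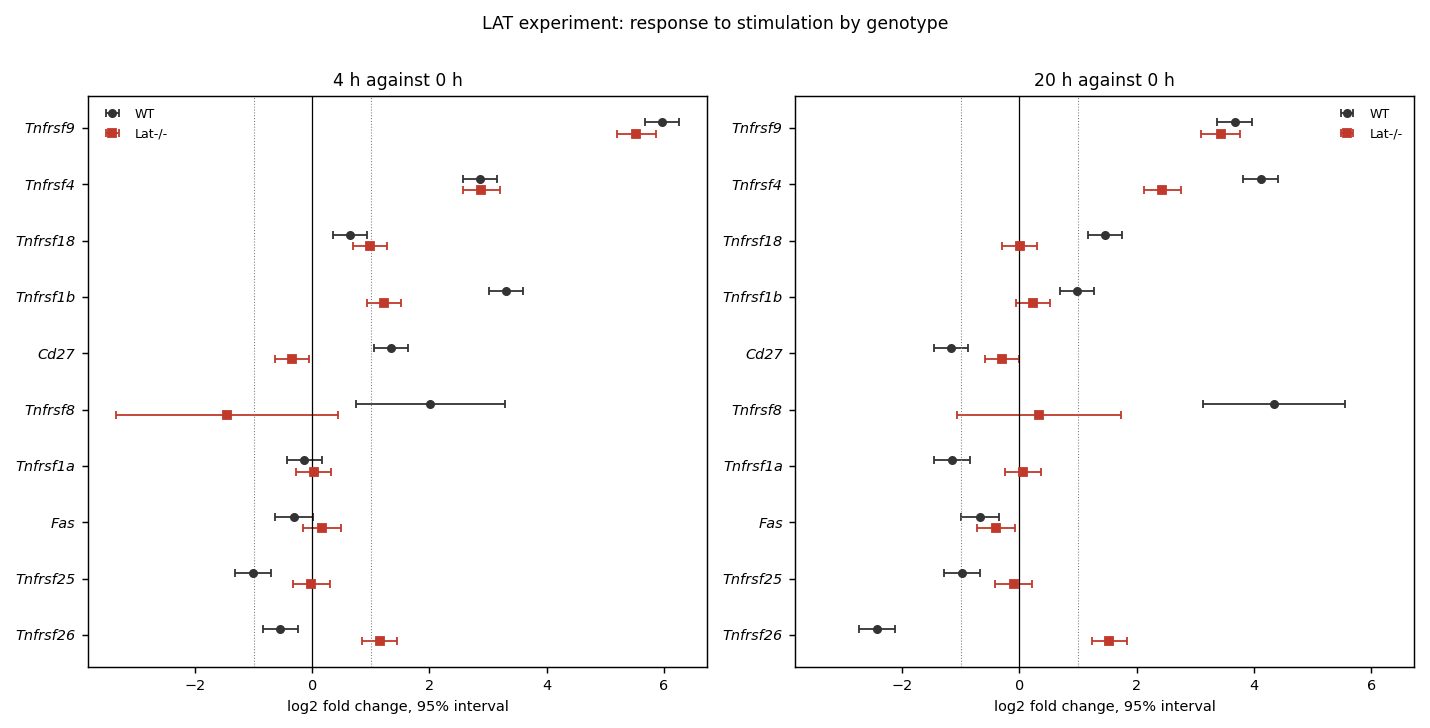
Log2 fold change over 0 h of each receptor gene in WT and Lat-/- cells of the LAT experiment, stimulated for 4 h or for 20 h, with 95% intervals from edgeR and dotted lines at a 2-fold change. WT and Lat-/- intervals lie close together for Tnfrsf9 at both times and for Tnfrsf4 at 4 h, and lie on opposite sides of 0 for Tnfrsf26 at both times.

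The relative rise of Tnfrsf9 was large in Lat-/- cells, from a lower start. Its mean level in Lat-/- cells was 11.9% of that in WT cells at 0 h, 8.83% at 4 h, and 10.2% at 20 h. Tnfrsf9 went from the resting 1.05, 0.976, and 1.49 RPKM to 61.5, 43.9, and 58.3 RPKM at 4 h in Lat-/- cells. At 20 h it had 10.5, 3.83, and 24.1 RPKM there. Each stimulated library was above each resting Lat-/- library, and each was below the WT libraries of its time. The rise at 4 h was 46.1-fold (log2 5.53 ± 0.17), against 62.4-fold in WT cells. The difference of the 4 h responses was -0.44 (log2, 95% interval -0.88 to 0.01, edgeR adjusted p = 0.233). The level itself was 11.3-fold lower than in WT cells at 4 h (edgeR adjusted p = 7.1e-100) and 9.84-fold lower at 20 h (edgeR adjusted p = 4.85e-90). At 20 h the difference of responses was -0.23 (-0.68 to 0.21), but library 3 of Lat-/- cells decided this value: without it the difference was -1.08 and was called (edgeR adjusted p = 3.19e-05), the rise over 0 h was 2.58 in place of 3.43 on the log2 scale, and the difference from WT cells at 20 h was -4.15 in place of -3.30.

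Tnfrsf4 likewise rose at 4 h without LAT but did not go on to the high level of WT cells. It had 28.3, 28.3, and 47.2 RPKM at 4 h and 20.0, 9.24, and 46.9 RPKM at 20 h in Lat-/- cells. At 4 h the rise was 7.40-fold in Lat-/- cells and 7.29-fold in WT cells, and the difference of these responses was 0.02 (log2, 95% interval -0.41 to 0.46). At 20 h it was 5.43-fold against 17.3-fold, and this difference was called at -1.67 ± 0.22 (edgeR adjusted p = 1.04e-12). Its mean level in Lat-/- cells was 20.9% of that in WT cells at 0 h, 21.3% at 4 h, and 6.59% at 20 h. Library 3, at the upper end of the 20 h values, was below every WT library, and without it the difference of responses was -2.48 and the difference from WT at 20 h was -4.73, against -3.92 with it.

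The rise of Tnfrsf1b at 4 h was smaller without LAT, and that of Cd27 was not seen. Tnfrsf1b had 68.3, 59.4, and 59.6 RPKM at 4 h in Lat-/- cells, above their 0 h libraries (24.1, 26.4, and 30.1 RPKM) and below every WT library at 4 h. It rose 2.33-fold against 9.90-fold in WT cells, a difference of responses of -2.09 ± 0.21 (edgeR adjusted p = 1.65e-20). Cd27 had 115, 128, and 111 RPKM at 4 h in Lat-/- cells, below both their own 0 h libraries (153, 153, and 143 RPKM) and the WT libraries at 4 h. Its log2 change over 0 h was -0.34 ± 0.15, not called, and the difference of responses was -1.69 ± 0.21 (edgeR adjusted p = 8.94e-14). At 20 h, Cd27 had 108, 123, and 133 RPKM in Lat-/- cells and was 2.10-fold higher than in WT cells (edgeR adjusted p = 5.23e-12), so that the sign of the difference between the genotypes was opposite at the 2 times.

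Tnfrsf18 and Tnfrsf8 had no called rise at 20 h without LAT. Tnfrsf18 had 68.4, 70.0, and 69.5 RPKM at 4 h and 33.0, 33.2, and 39.3 RPKM at 20 h in Lat-/- cells. The 4 h libraries were above those at 0 h by a log2 of 0.99 ± 0.15, just under the threshold, against 0.64 ± 0.15 in WT cells, and the difference of these responses was not called (0.35, 95% interval -0.07 to 0.76). At 20 h the log2 change over 0 h was 0.01 ± 0.15 in Lat-/- cells, and the difference of responses was -1.45 ± 0.21 (edgeR adjusted p = 2.11e-10). Tnfrsf18 was then 4.16-fold below WT cells without overlap. Tnfrsf8 had 2, 0, and 11 counts at 0 h, 1, 0, and 3 at 4 h, and 0, 0, and 17 at 20 h in the Lat-/- libraries, all 17 reads at 20 h being in library 3. WT libraries at 20 h had at least 59 reads, and the difference between the genotypes was -3.84 ± 0.59 (edgeR adjusted p = 3.14e-10), a fitted value that rests on few counts.

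Tnfrsf26 rose in Lat-/- cells while it fell in WT cells. It had 22.6, 22.4, and 26.5 RPKM at 0 h, 52.8, 55.7, and 50.5 RPKM at 4 h, and 69.9, 72.9, and 64.3 RPKM at 20 h in Lat-/- cells, with no overlap between the 3 times. The change over 0 h was 1.15 ± 0.15 at 4 h and 1.53 ± 0.15 at 20 h (log2), called at both times. At 0 h the genotypes overlapped and differed by -0.04 (95% interval -0.34 to 0.26). At 4 h Tnfrsf26 was 3.15-fold higher in Lat-/- cells than in WT cells, and at 20 h 15.2-fold higher (log2 3.92 ± 0.15, edgeR adjusted p = 4.78e-114). The difference of responses was 1.69 ± 0.21 at 4 h and 3.96 ± 0.22 at 20 h (edgeR adjusted p = 6.88e-68), and at 20 h Tnfrsf26 made up 19.0% of the summed RPKM of the 10 genes in Lat-/- cells against 0.558% in WT cells.

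Of the death domain receptors, Tnfrsf1a differed between the genotypes after stimulation and the other 2 did not pass both thresholds. Tnfrsf1a stayed near its resting level in Lat-/- cells, with 29.3, 33.7, and 38.3 RPKM at 0 h, 35.5, 29.9, and 37.9 RPKM at 4 h, and 34.2, 35.0, and 36.6 RPKM at 20 h. The 3 times overlapped, and at 20 h it was 2.31-fold higher than in WT cells (log2 1.21 ± 0.15, edgeR adjusted p = 7.2e-14). Tnfrsf25 had 17.6, 18.9, and 18.9 RPKM at 4 h and 16.3, 18.1, and 18.0 RPKM at 20 h in Lat-/- cells, near its 0 h level in these cells and overlapping WT cells at both times. The difference of its responses was 0.99 ± 0.23 at 4 h (edgeR adjusted p = 0.000203), just under the 2-fold threshold. It was called with DESeq2 (1.01, adjusted p = 5.72e-07), with RLE factors (1.01), with the compared groups alone (1.01), with library totals (1.14), and without replicate 3 (1.25). Fas had 18.1, 20.2, and 21.2 RPKM at 0 h, 33.0, 18.1, and 15.7 RPKM at 4 h, and 13.2, 14.4, and 17.4 RPKM at 20 h, overlapping WT cells at each time.

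Set side by side at each time, 5 members were lower in Lat-/- cells than in WT cells at 4 h (6.23% of all genes were lower), namely Tnfrsf9, Tnfrsf8, Tnfrsf4, Tnfrsf1b, and Cd27, and Tnfrsf26 was higher (5.51% of all were higher). Of these, the difference of Tnfrsf8 was not called with DESeq2 (adjusted p = 0.0671). At 20 h, Tnfrsf4, Tnfrsf8, Tnfrsf9, and Tnfrsf18 were lower (12.3% of all), and Tnfrsf26, Tnfrsf1a, and Cd27 were higher (12.1% of all). Tnfrsf4 and Tnfrsf9 were thus called at all 3 times, in the same direction. Tnfrsf1b, with 0.07 at 0 h, -2.02 at 4 h, and -0.68 at 20 h on the log2 scale, was called at 4 h only.

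**Figure D3:**
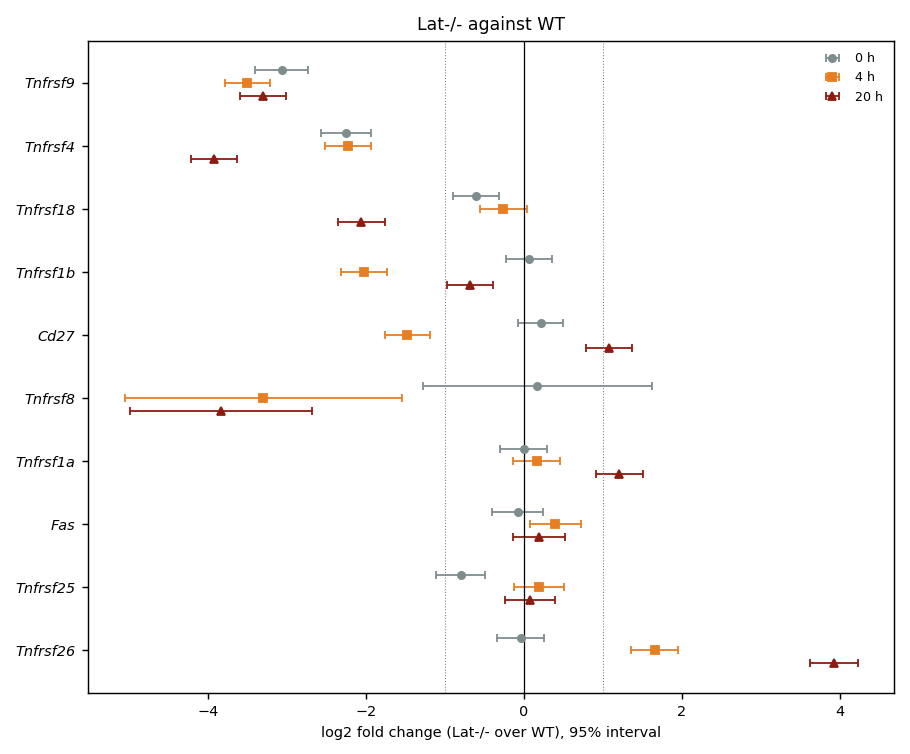
Log2 fold change of each receptor gene in Lat-/- over sorted WT cells at 0, 4, and 20 h, with 95% intervals from edgeR and dotted lines at a 2-fold change. Tnfrsf9 and Tnfrsf4 lie left of the lower line at all 3 times, and Tnfrsf26 moves from near 0 at 0 h to 1.65 at 4 h and 3.92 at 20 h.

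Without CD5, CD6, or both, most members that were called over time were those called in WT cells. At 4 h over 0 h, 5 members were called in Cd5-/- cells (19.5% of all genes), 5 in Cd6-/- cells (18.0%), and 4 in Cd5-/-Cd6-/- cells (17.2%), and Tnfrsf9, Tnfrsf4, Tnfrsf1b, and Cd27 rose in all 3. The fifth call was the rise of Tnfrsf8 in Cd6-/- as in WT cells, but the fall of Tnfrsf26 in Cd5-/- cells (log2 -1.36 ± 0.17, against -0.87 ± 0.17 in WT cells, not called). Tnfrsf8 had a log2 change of 0.04 ± 0.49 in Cd5-/- cells, which was 1.64 and called without the libraries that go against their labels, and 0.73 ± 0.48 in Cd5-/-Cd6-/- cells, not called. At 20 h, 8 members were called in each (30.0%, 28.2%, and 30.3% of all genes in Cd5-/-, Cd6-/-, and Cd5-/-Cd6-/- cells), the same 8 as in WT cells. Over the 4 genotypes, the log2 rise of Tnfrsf9 at 4 h ran from 5.75 to 6.40, that of Tnfrsf4 at 20 h from 4.43 to 5.18, that of Tnfrsf1b at 4 h from 2.92 to 3.17, and that of Cd27 at 4 h from 1.32 to 1.65. The fall of Tnfrsf26 at 20 h ran from -3.39 to -2.41.

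**Figure D4:**
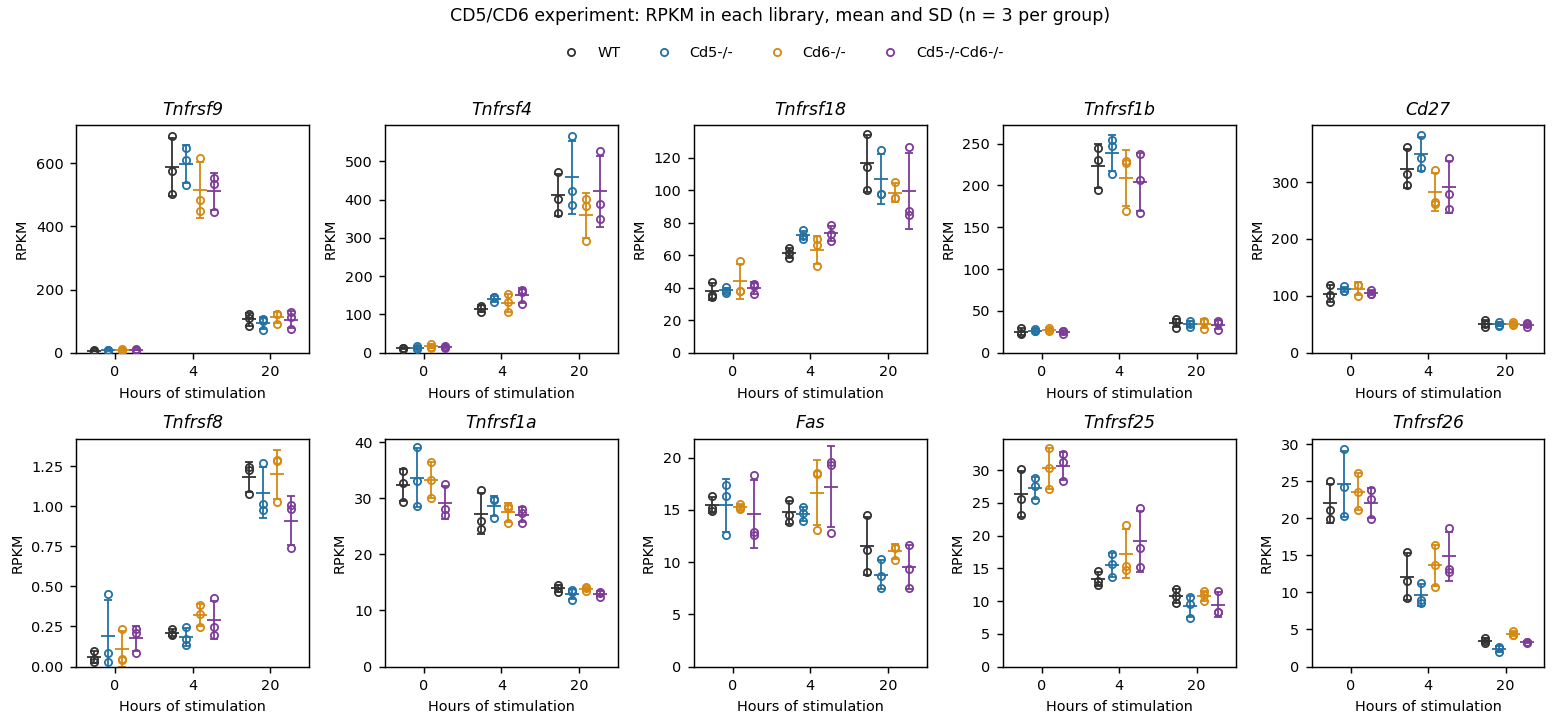
RPKM of the 10 receptor genes in each library of the CD5/CD6 experiment against hours of stimulation (0, 4, and 20 h drawn at equal spacing), with open circles for libraries and bars for the mean and SD of 3 libraries per genotype. At 4 h Tnfrsf9 is highest and at 20 h Tnfrsf4 is highest in each of the 4 genotypes, and the library of Tnfrsf8 that stands apart at 0 h is library 2 labelled Cd5-/-.

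In the direct comparisons with WT cells, 0 of 10 members were called in any of the 9 comparisons, by edgeR or by DESeq2. Of all genes, 0.0619%, 0.0743%, and 0.0186% were called in Cd5-/- cells at 0, 4, and 20 h, 0.0%, 0.0031%, and 0.0186% in Cd6-/- cells, and 0.0248%, 0.0434%, and 0.0434% in Cd5-/-Cd6-/- cells. An unadjusted p under 0.05 was found for 1, 0, and 2 members in Cd5-/- cells at these times (2.96%, 3.39%, and 2.24% of all genes). In Cd6-/- cells it was 1 member at each time (2.19%, 2.74%, and 1.68% of all genes), and in Cd5-/-Cd6-/- cells 3, 2, and 0 members (1.84%, 2.76%, and 2.3% of all genes). Leaving Tnfrsf8 aside, the 81 log2 differences ran from -0.56 to 0.55, the smallest adjusted p was 0.927, and the 95% intervals reached from -0.92 to 0.92, so that differences of up to 1.90-fold remain possible at this depth and number of samples. In the difference of responses, 0 members were called as well, by edgeR or by DESeq2, and in the edgeR test 0.0031%, 0.0%, and 0.0% of all genes were called at 4 h without CD5, CD6, or both, and 0.0031%, 0.0031%, and 0.0% at 20 h. At 4 h, an unadjusted p under 0.05 was found for 2 members without CD5, 0 without CD6, and 1 without either (2.07%, 2.27%, and 2.08% of all genes), and at 20 h for 2, 2, and 1 members (2.29%, 2.07%, and 1.73% of all genes). Leaving Tnfrsf8 aside, the 54 differences of responses ran from -0.75 to 0.31 on the log2 scale with 95% intervals that reached from -1.26 to 0.81, so that differences of up to 2.40-fold, above the threshold for a call, remain possible. Without both libraries that go against their labels, 20 to 209 of all genes were called between Cd5-/- or Cd6-/- and WT cells at 0 h. In the differences of responses it was 1 to 28. No member was called in these comparisons. Leaving Tnfrsf8 aside, the 0 h differences then ran from -0.08 to 0.27 in Cd5-/- cells and from -0.03 to 0.66 in Cd6-/- cells.

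**Figure D5:**
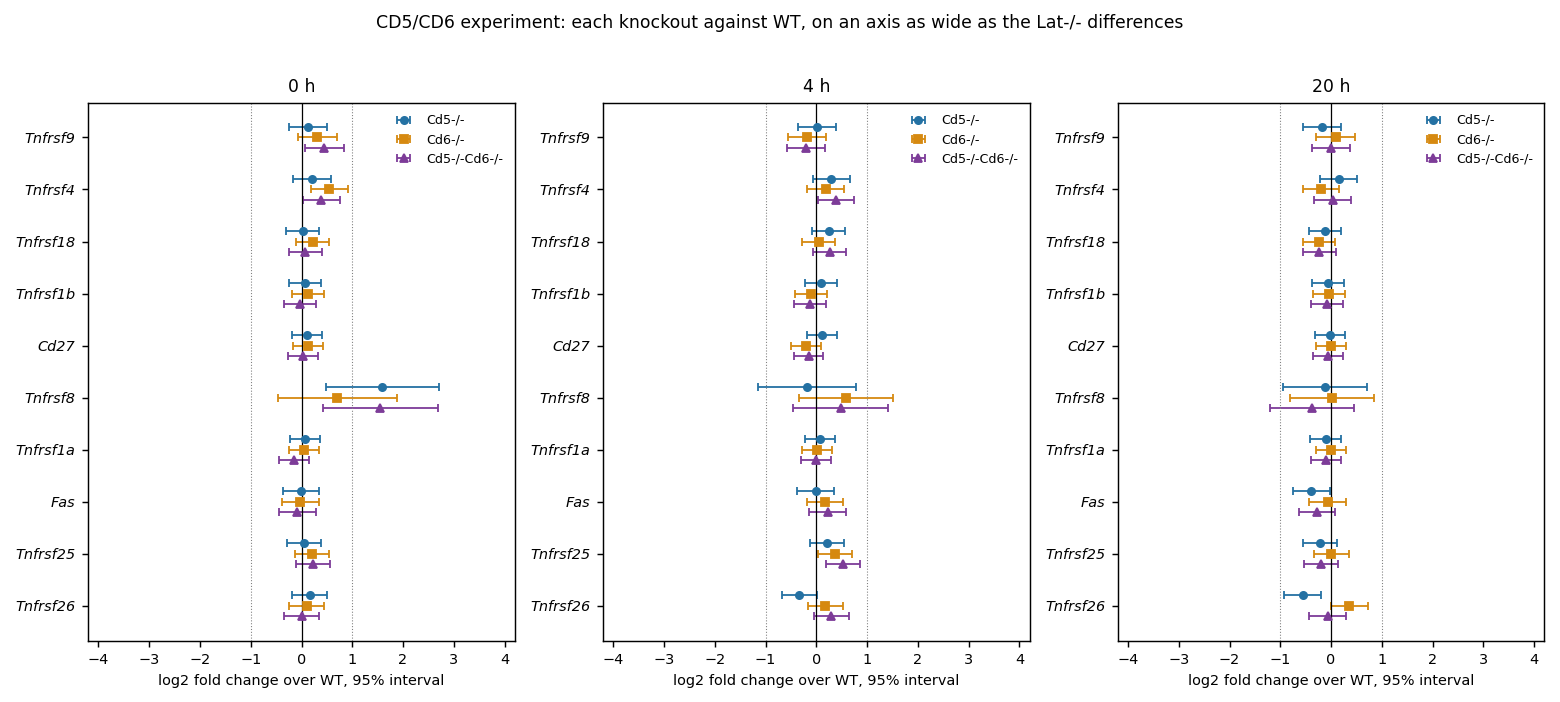
Log2 fold change of each receptor gene in Cd5-/-, Cd6-/-, and Cd5-/-Cd6-/- cells over WT cells at 0, 4, and 20 h, with 95% intervals from edgeR and dotted lines at a 2-fold change. Values other than those of Tnfrsf8 lie between -0.56 and 0.55, and the intervals of Tnfrsf8 are the widest at 0 h.

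A few of these differences had libraries that did not overlap WT cells, and none passed the adjusted test. Tnfrsf26 at 20 h had 1.91, 2.66, and 2.43 RPKM in Cd5-/- cells, below the WT libraries (3.40, 3.16, and 3.83 RPKM), and 4.30, 4.24, and 4.82 RPKM in Cd6-/- cells, above them. Its log2 differences were -0.56 ± 0.18 and 0.36 ± 0.18, opposite in sign, and that of Cd5-/-Cd6-/- cells was -0.07 ± 0.18. Tnfrsf4 at 0 h had 14.0, 13.4, and 22.8 RPKM in libraries labelled Cd6-/-, all above the WT libraries (10.3, 11.1, and 12.9 RPKM), with a log2 difference of 0.55 ± 0.19, which was 0.66 without both libraries that go against their labels (edgeR adjusted p = 0.262). Tnfrsf25 at 4 h had 15.1, 24.2, and 18.0 RPKM in Cd5-/-Cd6-/- cells and 12.4, 14.5, and 13.1 RPKM in WT cells. Its log2 differences from WT cells were 0.52 ± 0.17 in Cd5-/-Cd6-/- cells and 0.37 ± 0.17 in Cd6-/- cells, neither with overlap. Tnfrsf4 at 4 h had a log2 difference of 0.39 ± 0.18 in Cd5-/-Cd6-/- cells, also without overlap. Tnfrsf8 at 0 h had 4, 45, and 12 counts in libraries labelled Cd5-/-, with 45 of them in library 2, which goes against its label. Its log2 difference of 1.59 ± 0.56 became -0.02 without both such libraries, and the differences of the other 9 members between Cd5-/- and WT cells at 0 h then ran from -0.08 to 0.27.

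Markers of gamma delta T cells moved with the loss of CD5. Of 5 such markers, 1, 4, and 1 were higher in Cd5-/- cells at 0, 4, and 20 h and 3, 4, and 3 in Cd5-/-Cd6-/- cells. Their summed level at 0 h was 35.7 to 38.2 CPM in WT cells, 37.8 to 102 CPM in Cd5-/- cells, 31.9 to 88.9 CPM in Cd6-/- cells, and 83.0 to 126 CPM in Cd5-/-Cd6-/- cells. At 4 h it was 21.2 to 23.1 CPM in WT cells, 57.3 to 63.0 CPM in Cd5-/- cells, and 62.3 to 86.6 CPM in Cd5-/-Cd6-/- cells, and at 20 h 5.20 to 7.53, 12.9 to 14.4, and 13.5 to 20.7 CPM, so that both groups without CD5 were above WT cells without overlap at 4 h and 20 h. In Cd6-/- cells the sum was 16.4 to 30.5 CPM at 4 h and 4.35 to 7.07 CPM at 20 h. The 0 h values of Cd5-/- and Cd6-/- cells include the libraries that go against their labels. Markers of B cells summed to 111 to 617 CPM in WT cells at 0 h and to 1.86 to 3.50 CPM at 20 h in the CD5/CD6 experiment, and those of myeloid cells to 120 to 277 CPM at 0 h, 15.5 to 25.5 CPM at 4 h, and 2.21 to 3.54 CPM at 20 h. In sorted WT cells these sums were 3.22 to 4.94 and 4.69 to 7.45 CPM at 0 h. Between the genotypes, 2 of 7 B cell markers were lower in Cd5-/- than in WT cells at 0 h. Markers of regulatory T cells gave 0 calls in the 9 comparisons with WT cells. At 0 h they summed to 75.5 to 82.8 CPM in WT and 67.3 to 124 CPM in Cd5-/- cells. In Cd6-/- and Cd5-/-Cd6-/- cells they summed to 82.8 to 101 and 74.0 to 114 CPM. In the same order the 4 h sums were 123 to 154, 121 to 176, 140 to 171, and 146 to 187 CPM. The 20 h sums were 91.0 to 141, 80.6 to 99.3, 95.8 to 136, and 84.8 to 89.5 CPM. The part of any of these cell types in the members' values was not tested. The members' changes over time in WT cells had the same sign in both experiments wherever they were called in both.

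The ligands of these receptors also rose in WT cells. Of 9 ligand genes, 7 of the 9 tested rose at 4 h in enriched WT cells and 6 of the 8 tested in the LAT experiment, where their median log2 change was 2.82 against 0 over all genes (8.24% and 8.05% of all genes rose). Tnf, the ligand of TNFR1 and TNFR2, rose by a log2 of 5.19 ± 0.15, Fasl, the ligand of Fas, by 3.88 ± 0.16, and Lta, which binds the same receptors as TNF, by 3.39 ± 0.15. At 20 h, 7 ligands were above 0 h in each experiment (12.3% and 10.8% of all genes), among them Tnfsf4, the ligand of OX40, with 3.96 ± 0.40 in the LAT experiment. In Lat-/- cells, 3 of 8 rose at 4 h (Tnfsf4 by 3.55 ± 0.59, Tnf by 2.00 ± 0.16, and Fasl by 1.63 ± 0.16) and 1 was above 0 h at 20 h (3.08% and 2.14% of all genes). Against WT cells, 1 of 8 ligands was lower at 0 h, 5 at 4 h, and 7 at 20 h, and 0 were higher, with median log2 differences of -0.25, -2.24, and -3.16. Of all genes, 6.23% and 12.3% were lower at 4 h and 20 h. Tnf was lower by -3.68 ± 0.15, Lta by -3.41 ± 0.15, and Tnfsf9, the ligand of CD137, by -2.82 ± 0.27 at 4 h.

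The adaptors that act below the costimulators gave calls in both directions. Of 12 genes of TRAF adaptors and non-canonical NF-kappaB, 4 rose and 1 fell at 4 h in sorted WT cells, and 4 rose and 1 fell in Lat-/- cells (8.05% of all genes rose and 9.29% fell in WT cells, 3.08% and 3.62% in Lat-/- cells). Nfkb2, which encodes the p100 precursor, rose by 2.65 ± 0.15 in WT and 2.39 ± 0.15 in Lat-/- cells, and its partner Relb rose by 2.25 ± 0.15 and 2.44 ± 0.15. Traf5, an adaptor of OX40 and CD27, fell by 1.74 ± 0.21 and 1.23 ± 0.20 on the log2 scale. Between Lat-/- and WT cells, 0 of 12 differed at 0 h and Traf5 was called at 4 h, as higher by 1.14 ± 0.21 (5.51% of all genes were higher and 6.23% lower). At 20 h Traf5 (2.12 ± 0.21) and Map3k14 (1.53 ± 0.15), the kinase NIK, were higher in Lat-/- cells, and Nfkb2 (-2.03 ± 0.15) and Relb (-1.05 ± 0.15) were lower, which is 4 of 12 where 12.1% of all genes were higher and 12.3% lower. Of 9 tested genes of death receptor signalling, 0, 2, and 3 were lower in Lat-/- cells at 0, 4, and 20 h and 1 was higher at 20 h. Cflar, an inhibitor of death receptor signalling, was higher by 1.35 ± 0.15 at 20 h.

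The other receptors of the superfamily were a mixed group. Of 16 tested in the LAT experiment, 3 rose and 2 fell at 4 h in WT cells and 3 rose and 3 fell at 20 h, with median log2 changes of 0.50 and -0.09, where 8.05% and 10.8% of all genes rose and 9.29% and 12.7% fell. Tnfrsf21 (DR6), a death domain receptor, rose by 4.79 ± 0.37 at 4 h in WT cells and was lower in Lat-/- than in WT cells by -4.07 ± 0.35 at 4 h and -4.69 ± 0.34 at 20 h. Tnfrsf23, a decoy receptor for TRAIL and a gene related to Tnfrsf26, was higher in Lat-/- cells by 1.47 ± 0.28 at 4 h and 3.08 ± 0.31 at 20 h. Tnfrsf14, the gene of HVEM, was higher by 2.06 ± 0.18 at 20 h. In all, 1 was higher and 3 lower at 4 h, and 2 were higher and 4 lower at 20 h, against 0 called at 0 h. For all genes these shares were 5.51% higher and 6.23% lower at 4 h and 12.1% and 12.3% at 20 h. In the 9 comparisons of CD5/CD6 genotypes with WT cells, the lists of ligands, TRAF and NF-kappaB genes, and death receptor signalling gave 0 calls, and that of other receptors gave 1, Tnfrsf13c in Cd5-/- cells at 0 h (-1.71 ± 0.35), a gene of B cells.

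The genes whose course was most like that of a member were found by the lower of 2 Pearson correlations of mean log2 CPM, over the 12 groups of the CD5/CD6 experiment and over the 6 groups of the LAT experiment, among the 10086 genes that averaged 50 counts or more. The points share libraries and scaling, and the values are descriptions. For Tnfrsf9 these were Egr3 (r = 0.986 and 0.987), Bcl2a1b, and Marcksl1, and for Tnfrsf4 they were Alpl (0.996 and 0.984), Stx3, and Thap4. For Tnfrsf26 they were Fmo5 (0.991 and 0.991), S1pr1, and Pcmtd1. For Cd27 they were Lrch1, BC024978, and Gm9856, for Tnfrsf1b Med14, Arf3, and Cdip1, for Tnfrsf18 Acot7, Snf8, and Nudt9, and for Tnfrsf1a Cyb561d1, Zfand3, and Zbtb4. Fas came closest to Il4ra, Snhg12, and Tbc1d10a, and Tnfrsf25 to Tlr7, Arhgap18, and Terf2 with lower correlations (0.905 and 0.903 for Tlr7). Tnfrsf8 was under the count minimum.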

How the data were processed

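The authors mapped single reads of stranded mRNA libraries to GRCm38 with STAR, counted reads per gene with featureCounts, and deposited raw counts, not normalized and not pooled, in 1 table per experiment. The version of STAR and the use of strand in counting are not given in the sources used here. All columns were assigned to samples through the labels (0 unused). The members and the gene lists were chosen with earlier results of these data known.

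From the deposited counts, genes with at least 1 read per experiment were kept, libraries were scaled by TMM, and all samples of an experiment entered 1 fit with a coefficient per group (edgeR 4.0.16 in R 4.3.3, quasi-likelihood test with Benjamini-Hochberg adjustment over all genes). A call needs a fold above 2 and an adjusted p under 0.05, as in the study, whose tool was DESeq2. In the LAT experiment edgeR estimated infinite prior degrees of freedom, so that all genes shared 1 spread. RPKM use the union of exons of each gene. Symbols were matched for 54487 of 55385 identifiers. Alternatives were DESeq2 1.42.0, RLE factors, library totals, filterByExpr, the compared groups alone, a replicate block, adjusted p alone, each replicate left out, and the doubtful libraries left out. Genes other than members were named by a rule: at most 3 per direction with the largest change among those called with a mean of at least 50 counts, the 3 most similar genes per member, and Cd5, Cd6, and Lat as checks of the labels. Foxp3 was named as the defining regulatory T cell marker. Some genes that the rule names are not reported here.

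Same-numbered libraries deviated together (every r above 0.1) in 17 of 18 comparisons of 2 groups in the CD5/CD6 experiment and in 2 of 9 in the LAT experiment. On counts simulated for 31033 and 26548 genes, 200 genes were changed 3-fold. In a comparison of genotypes at 20 h (Cd5-/- and Lat-/- against WT), edgeR called 194 and 199 of them, with 30 and 18 unchanged genes. In the difference of 20 h responses, edgeR called 178 and 186 of them, with 63 and 39 unchanged genes. There DESeq2 called 174 and 185 of them, with 19 and 8 unchanged genes.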

Additional observations from a re-analysis of the deposited data

Results flagged for a closer look

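Responses to stimulation that differed between Lat-/- and WT cells, by a test of the difference itself (edgeR, adjusted p under 0.05 and fold above 2), were those of 4 members at 4 h and 5 at 20 h. At 4 h the difference of the log2 responses was -2.09 for Tnfrsf1b, -3.47 for Tnfrsf8, -1.69 for Cd27, and 1.69 for Tnfrsf26. At 20 h it was -4.01 for Tnfrsf8, -1.67 for Tnfrsf4, -1.45 for Tnfrsf18, 1.21 for Tnfrsf1a, and 3.96 for Tnfrsf26. Negative values mean that the log2 change over 0 h was lower in Lat-/- cells than in WT cells. For Tnfrsf26 the WT and Lat-/- libraries moved in opposite directions at both times, while for Tnfrsf1a the WT libraries fell at 20 h and the Lat-/- libraries overlapped their 0 h level. The values of Tnfrsf8 rest on groups with at most 17 reads per Lat-/- library. Its difference at 4 h was not called with DESeq2, filterByExpr, the compared groups alone, or without replicate 1 or 3 (adjusted p from 0.0576 to 0.582), and that at 20 h was not called with DESeq2 (adjusted p = 0.104).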

How the results depend on the processing

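The number of members called stayed within 1.5 times the reported count in all 35 comparisons with DESeq2, RLE factors, library totals, the compared groups alone, without replicate 1, and without replicate 2, and in the 10 comparisons that hold the 0 h libraries 2 labelled Cd5-/- and Cd6-/-. The replicate block changed no count by more than that either: with the pairing of same-numbered libraries, 5 and 6 members were called at 4 h and 8 and 7 at 20 h in enriched and sorted WT cells. With the adjusted p alone, 8 members were called at 4 h in place of 5 in enriched WT and in Cd6-/- cells, 7 in place of 4 in Cd5-/-Cd6-/- cells, 5 in place of 1 between 4 h and 20 h in Lat-/- cells, 4 in place of 2 between Lat-/- and WT cells at 0 h, and 8 in place of 5 in the difference of 20 h responses of Lat-/- and WT cells. The comparison of 20 h with 4 h in Lat-/- cells gave 2 members with filterByExpr (Tnfrsf1b added), 4 without library 3 of Lat-/- cells at 20 h (Tnfrsf1b, Tnfrsf18, and Tnfrsf4 added), and 1 to 3 with each replicate left out. Leaving out each replicate gave 0 to 1 members between Cd5-/- and WT cells at 0 h, the 1 being Tnfrsf8 without replicate 3. Tnfrsf8 at 20 h over 0 h in Lat-/- cells (0.33, log2) ran from -5.19 to 0.58 with libraries left out, the former without library 3, which holds all its reads at 20 h. Over single members, 3541 values kept their side of the thresholds, 23 no longer passed, and 75 newly passed. Tnfrsf8 at 4 h in sorted WT cells was not called with filterByExpr (edgeR adjusted p = 0.0937), DESeq2 (0.264), without replicate 1 (0.0563), or without replicate 3 (0.154), and the difference of its 4 h responses was not called with the groups alone (0.0576), DESeq2 (0.219), filterByExpr (0.145), or without replicate 1 (0.0744) or 3 (0.582). With DESeq2 its change between 4 h and 20 h in sorted WT cells (adjusted p = 0.149), its difference between Lat-/- and WT cells at 4 h (0.0671), and the difference of its 20 h responses (0.104) were not called. In sorted WT cells, Tnfrsf25 at 4 h and at 20 h, Tnfrsf1b at 20 h, and Tnfrsf1a between 4 h and 20 h stood at the 2-fold threshold and moved across it. Library totals moved the median of all genes by -0.04 to 0.10 on the log2 scale. Low depth limits Tnfrsf8 alone among the members.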
